A study of Mus musculus with 8 samples.

Results

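The response to OHT, the drug that leaves these cells without RAS genes, was compared between cells labelled ERF knockout and ERF wild type. For every gene the change with OHT was taken within each cell pool, OHT minus untreated, and the mean change of the wild type pools was subtracted from that of the labelled knockout pools. All 8 arrays of the series entered this difference. Of 21154 genes named on the array, 15154 could be tested, 13700 of them in all 4 pools and 1454 in 3 pools. In those 1454, spots of 1 pool lay in a dark area of an array or were flagged as outliers. A positive difference means that the gene stood higher after OHT in the labelled knockout than it did in the wild type, relative to the untreated cells of the same pool.

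The samples were mouse embryonic stem cells in 4 groups of 2 arrays: ERFko cells treated with OHT, untreated ERFko cells, ERFwt cells treated with OHT and untreated ERFwt cells. OHT is 4-hydroxytamoxifen, given for at least 2 days. All 4 groups, the wild type included, were labelled as lacking H-Ras and N-Ras (H-Ras-/-; N-Ras-/-) and carrying RERT ert/ert, an allele that makes a Cre recombinase dependent on OHT, through which OHT takes away the remaining RAS. The cells grew on gelatin in serum with LIF, and each sample was a mix of 2 clones. Pools A2 and B2 were the labelled knockout and pools A1 and B1 the wild type. Each pool gave an OHT sample and an untreated sample, and p-values therefore measure the spread between pools of the same genotype, of which there were 2 each.

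RAS proteins pass growth factor signals through RAF and MEK to the kinase ERK. ERF is a repressor of the ETS family of transcription factors, which bind DNA around a GGAA core. Active ERK phosphorylates ERF and keeps it out of the nucleus, and ERF enters the nucleus and occupies its targets when ERK signalling falls. A gene whose response to RAS loss runs through ERF would respond differently in cells without it, and the difference of the responses is the comparison that addresses this question.

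The arrays were alike in quality. Between 54.0% and 63.6% of spots were well above background, none was saturated, and 0 to 6.26% lay in dark areas and were left out, the most on the OHT array of pool A2. Slide 1 held 6 arrays and slide 2 the pair of pool B1, so that slide is contained in the pool term of the test. Of 12 embryonic stem cell markers 11 were well above background on all arrays, and the median marker level per array, as log2 relative to the 75th percentile of the array, was 4.25 to 5.53 in labelled knockout cells with OHT, 4.11 to 5.45 in untreated labelled knockout cells, 5.03 to 5.17 in wild type cells with OHT and 5.30 to 5.32 in untreated wild type cells. In bulk RNA, fewer cells of a type and less RNA per cell cannot be told apart.

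The level of Erf went against the label in 1 of the 2 labelled knockout pools. On the scale of log2 relative to the 75th percentile of the array, Erf was at 3.58 with OHT and 3.22 untreated in pool A2 and at 5.04 with OHT and 5.39 untreated in pool B2 of the labelled knockout, against 4.76 with OHT in pool A1 and 4.70 with OHT and 5.18 untreated in pool B1 of the wild type. Pool A2 was the low one, and pool B2 lay at or above the wild type. The untreated value of pool A1 lay in a dark area and was not used. Whether the probe reads the edited stretch of Erf is unknown here, so this level does not check the protein, and the genotype is called the labelled knockout throughout. The difference of the OHT changes of Erf was 0.49 ± 0.29 (SE; limma adjusted p 0.634; 95% interval -0.26 to 1.24; 3 pools).

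The difference of the OHT changes was 0.06 for Hras (95% interval -0.19 to 0.31) and 0.14 for Nras (-0.16 to 0.44), and neither passed. The labels give both genes as deleted in every group, yet their probes were well above background on all 8 arrays, at 2.44 to 2.70 (log2) with OHT and 2.63 to 2.89 untreated in the labelled knockout for Hras, against 2.63 to 2.67 with OHT and 2.87 to 2.93 untreated in the wild type. Nras was at 1.74 to 1.82 with OHT and 1.32 to 1.46 untreated in the labelled knockout, against 0.77 to 1.64 with OHT and 0.58 to 1.32 untreated in the wild type. Whether these probes lie in the deleted stretches is unknown here, so the levels do not check the deletions.

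No gene of the 15154 passed at a limma adjusted p of 0.05 for the difference (0.00%). At an unadjusted p of 0.05, 1458 genes lay under the threshold (9.62%), against 758 that a test without any difference would place there, and 518 of them had the higher change in the labelled knockout (3.42%) and 940 the lower (6.20%). Without the wild type pool A1, no more genes lay under that threshold than a test without any difference would place there. With each other pool left out instead, more did. Every such fit left 1 pool in a genotype, which limits what its count can show. With all pools, the smallest adjusted p was 0.0664 and was shared by 14 genes, and 18 genes were under 0.1. The median interval reached 0.40 to either side of a difference, and the 2 pools per genotype limit what could be called. Other processing moved this count: 241 genes passed with a normexp background correction, 173 when the A pools and the B pools were also paired across the genotypes, and 13 to 18 under 3 other settings. The share of genes under the unadjusted threshold that were higher in the labelled knockout, 35.5%, also moved: it was 16.5% with arrays scaled on their median, 40.1% with quantile normalization, 65.3% without masking, 55.8% with plain eBayes and 56.1% without the labelled knockout pool A2, the last 3 with more genes higher than lower. In the 13700 genes with 4 complete pools, both labelled knockout pools lay above both wild type pools in 2184 (15.9%) and below both in 3627 (26.5%). The genes below are those of smallest p in each direction, 12 higher and 12 lower, chosen by that p among genes well above background on all arrays whose pools did not overlap. None of them passed.

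In these 24 genes the change with OHT was smaller in size in the labelled knockout than in the wild type. The labelled knockout change passed at a limma adjusted p of 0.05 in 11 of the 24 and the wild type change in all 24. The same values and variances gave the p that chose these genes, so neither the sizes nor these counts are a test. Over all genes tested, 764 rose (5.04%) and 1358 fell (8.96%) in the labelled knockout, and 1404 rose (9.26%) and 1319 fell (8.70%) in the wild type. The 12 genes of negative difference had mean changes of -0.11 to 1.69 (log2) in the labelled knockout, and all rose in the wild type, by 0.89 to 2.85. The 12 genes of positive difference had mean changes of -1.098 to 0.43 in the labelled knockout, and all fell in the wild type, with changes of -2.03 to -0.46. In 22 of the 24 the genotypes stood further apart with OHT than without it. The share over all genes was not taken, so this count lacks a background.

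**Figure D1:**
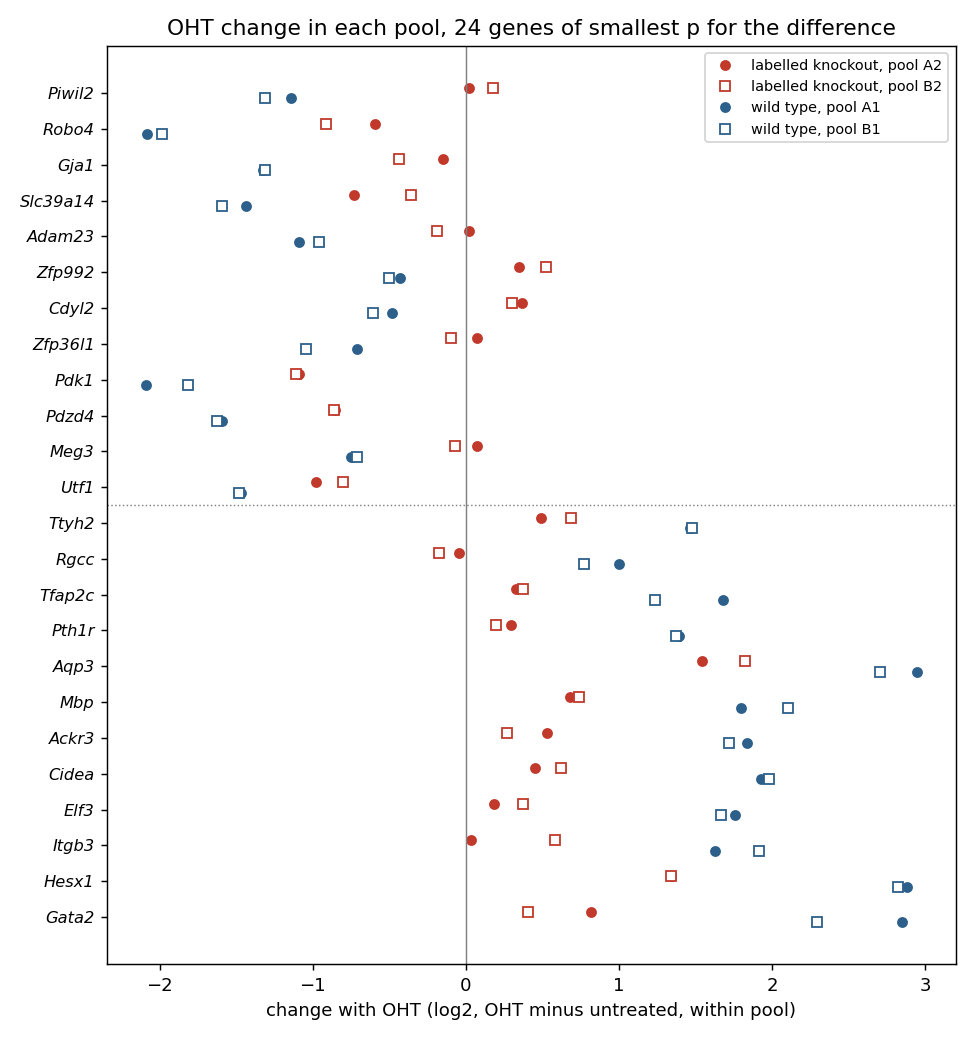
Change with OHT (log2, OHT minus untreated) in each pool for the 12 genes of positive difference (above the dotted line) and the 12 of negative difference (below it), with labelled knockout pools in red and wild type pools in blue. In every gene both labelled knockout pools lie on one side of both wild type pools, as the choice of the genes required. In most genes they lie nearer to 0.

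Promoters of 4 genes are printed because ERF binds ETS sites and the genes represent both directions: Elf3 and Gata2 with a negative difference, and Robo4 and Spry2, a feedback gene described further on, with a positive one. The sequences are RefSeq promoters of build GRCm38.p6, 250 bases before to 50 after the start of the gene, 5′ to 3′ on the strand of the gene. Capitals mark the ETS cores searched, CCGGAA and AGGAAG, and their reverse complements TTCCGG and CTTCCT. Elf3 is at chr1:135258423-135258722 (minus strand), Gata2 at chr6:88193641-88193940 (plus strand) (the first listed of its 2 starts), Robo4 at chr9:37401722-37402021 (plus strand) and Spry2 at chr14:105896770-105897069 (minus strand).
Elf3: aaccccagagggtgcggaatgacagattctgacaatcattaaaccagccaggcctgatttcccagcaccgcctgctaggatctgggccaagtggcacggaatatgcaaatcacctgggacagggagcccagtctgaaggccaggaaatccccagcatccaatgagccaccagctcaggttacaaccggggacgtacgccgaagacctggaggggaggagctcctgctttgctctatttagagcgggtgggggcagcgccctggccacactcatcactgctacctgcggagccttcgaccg
Gata2: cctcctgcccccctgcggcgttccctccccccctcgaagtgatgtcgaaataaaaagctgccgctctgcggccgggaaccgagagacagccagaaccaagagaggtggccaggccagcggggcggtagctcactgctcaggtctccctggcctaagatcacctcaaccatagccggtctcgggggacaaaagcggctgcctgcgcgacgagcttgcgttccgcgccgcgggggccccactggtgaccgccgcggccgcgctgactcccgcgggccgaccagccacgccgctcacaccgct
Robo4: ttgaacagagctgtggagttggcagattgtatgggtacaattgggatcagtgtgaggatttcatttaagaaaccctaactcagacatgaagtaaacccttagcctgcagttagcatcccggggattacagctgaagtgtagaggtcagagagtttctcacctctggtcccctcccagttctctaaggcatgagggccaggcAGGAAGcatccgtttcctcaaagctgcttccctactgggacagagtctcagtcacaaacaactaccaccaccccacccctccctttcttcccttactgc
Spry2: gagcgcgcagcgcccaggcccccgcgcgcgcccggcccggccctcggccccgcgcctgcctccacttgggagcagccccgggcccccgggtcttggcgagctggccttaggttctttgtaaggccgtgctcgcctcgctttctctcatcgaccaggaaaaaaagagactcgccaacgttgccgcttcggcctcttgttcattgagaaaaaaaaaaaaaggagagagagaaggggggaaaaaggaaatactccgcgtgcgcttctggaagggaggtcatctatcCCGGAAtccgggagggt

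The Elf3 and Gata2 promoters held neither core in this window, the Robo4 promoter held 1 AGGAAG and the Spry2 promoter 1 CCGGAA. Over all 27025 promoters, 15.2% held CCGGAA and 35.1% AGGAAG on either strand, and 45.2% held at least 1 of them. Of the 12044 tested genes with a promoter entry, 6022 held at least 1. Of the 40 genes whose difference was -1 or lower without overlap of pools, 28 had a promoter entry and 10 of those (35.7%) held a core. Of the 59 genes with a difference of at least 1, 45 had an entry and 21 (46.7%) held one. A CArG box, the site of the serum response factor, stood in 1 promoter of each of these sets (3.6% and 2.2%), against 1.6% of all promoters. These are matches of letters and say nothing about binding.

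Gata2, a zinc finger transcription factor of blood and trophoblast, had the most negative difference of the 24. Its level was -0.16 with OHT and -0.98 untreated in pool A2 and -1.32 with OHT and -1.72 untreated in B2, against 0.55 with OHT and -2.30 untreated in A1 and 0.36 with OHT and -1.93 untreated in B1. Both wild type pools were lowest untreated and highest with OHT. The changes of 0.82 and 0.40 in the labelled knockout, against 2.85 and 2.30 in the wild type, differed by -1.96 ± 0.25 (SE; limma adjusted p 0.0664).

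Elf3, an epithelial activator of the same ETS family as ERF, was low in every group but wild type cells with OHT. Its level was -1.11 with OHT and -1.30 untreated in A2 and -0.64 with OHT and -1.01 untreated in B2, against 0.84 with OHT and -0.92 untreated in A1 and 0.54 with OHT and -1.13 untreated in B1. The untreated arrays of both genotypes overlapped, and the OHT arrays did not. The change of Elf3 was 0.28 in the labelled knockout (adjusted p 0.166), Elf3 rose in the wild type by 1.71 (adjusted p 0.000131), and the difference was -1.43 ± 0.17 (SE; limma adjusted p 0.0664).

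Aqp3, a channel for water and glycerol in epithelia, rose in both genotypes, with the smaller rise in the labelled knockout. Its level was 1.83 with OHT and 0.28 untreated in A2 and 3.37 with OHT and 1.54 untreated in B2, against 4.47 with OHT and 1.52 untreated in A1 and 4.41 with OHT and 1.71 untreated in B1. Pool A2 was also the lowest of the untreated arrays. The rise was 1.69 in the labelled knockout (limma adjusted p 0.000136) and 2.83 in the wild type, a difference of -1.14 ± 0.14 (SE). Hesx1, a homeobox repressor of the anterior neural plate and pituitary, likewise rose in both, by 1.34 in the labelled knockout and 2.85 in the wild type, with a difference of -1.51 ± 0.21 (SE).

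**Figure D2:**
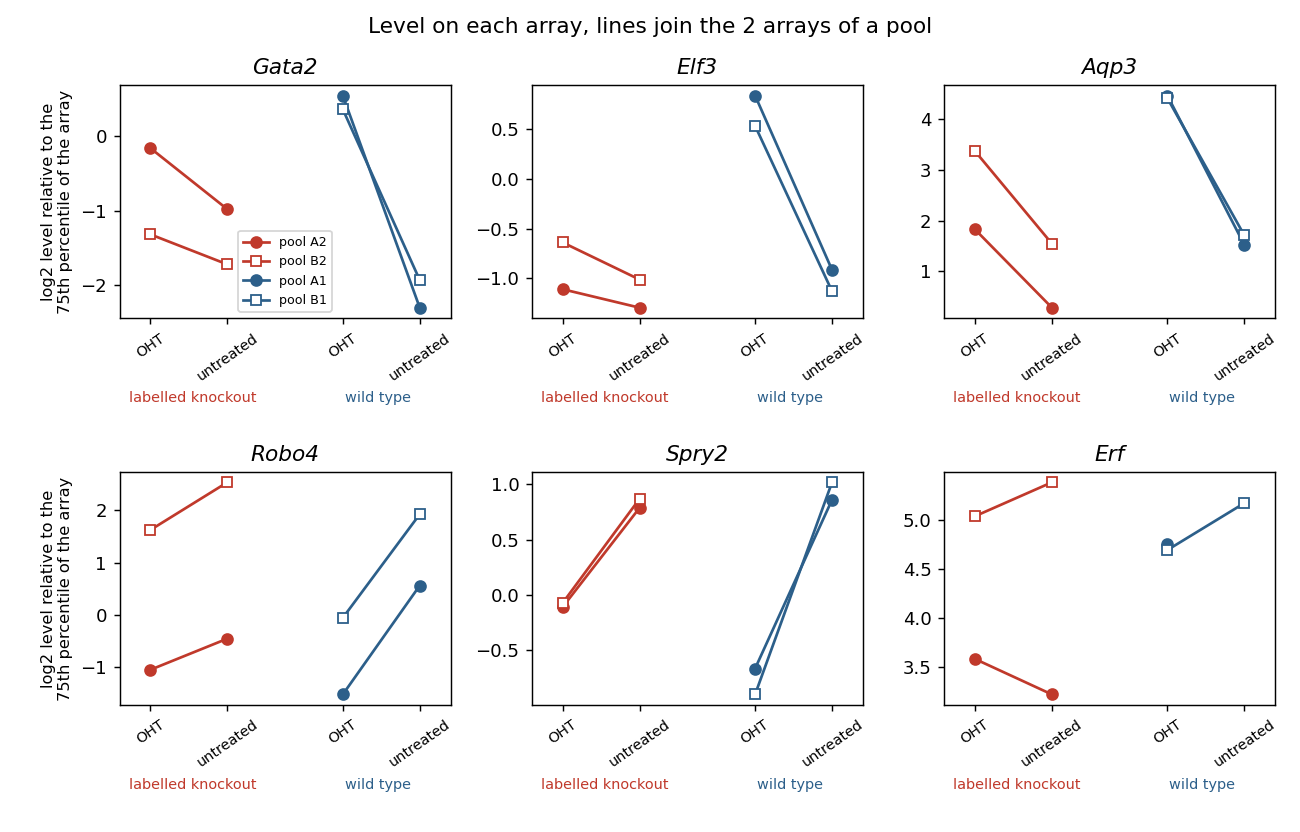
Level of 6 genes on each array (log2 relative to the 75th percentile of the array), with OHT left of untreated and the labelled knockout left of the wild type; lines join the arrays of a pool, and the untreated Erf value of pool A1 was masked. Gata2 and Elf3 separate the genotypes with OHT, and Erf separates pool A2 from the rest.

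The other genes of negative difference came from several functions. Tfap2c, a transcription factor of trophoblast and germ cells, had changes of 0.33 and 0.37 in pools A2 and B2, against 1.68 and 1.23 in A1 and B1. Ackr3, a scavenging receptor for the chemokine CXCL12, had changes of 0.53 and 0.27, against 1.84 and 1.72. Itgb3, the beta subunit of the vitronectin receptor, had changes of 0.03 and 0.58, against 1.63 and 1.91. In each of them the 2 wild type pools lay above 1.2 and the 2 labelled knockout pools below 0.6.

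Cidea, a protein of lipid droplets, differed by -1.42 ± 0.16 (SE), Pth1r, the receptor of parathyroid hormone, by -1.14 ± 0.15 (SE) and Mbp, a structural protein of myelin, by -1.24 ± 0.17 (SE). The labelled knockout pools of Mbp were themselves far apart untreated, at 0.86 in A2 and -0.82 in B2, against -0.80 in A1 and -1.05 in B1, while the changes of its pools were alike within each genotype. Rgcc, a regulator of the cell cycle, was the 1 gene of these 12 with opposite signs: its changes were -0.05 and -0.18 in the labelled knockout and 1.00 and 0.77 in the wild type. Ttyh2, a membrane protein of the tweety family, differed by -0.88, and the value turned to 0.32 when dark areas were masked from a threshold of -0.25.

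Robo4, a receptor of endothelial cells related to the axon guidance receptors, fell in both genotypes, with the smaller fall in the labelled knockout. Its level was -1.05 with OHT and -0.45 untreated in A2 and 1.63 with OHT and 2.54 untreated in B2, against -1.52 with OHT and 0.56 untreated in A1 and -0.06 with OHT and 1.93 untreated in B1. The pools of each genotype stood far apart in level, and the changes within them did not: -0.59 and -0.91 in the labelled knockout, against -2.08 and -1.98 in the wild type. The fall had a limma adjusted p of 0.00737 in the labelled knockout and 4.66e-05 in the wild type, and the difference was 1.28 ± 0.16 (SE; adjusted p 0.0664).

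Piwil2, which binds piRNAs in male germ cells, was at -1.03 with OHT and -1.04 untreated in A2 and at -0.49 with OHT and -0.67 untreated in B2, against -1.49 with OHT and -0.35 untreated in A1 and -1.71 with OHT and -0.40 untreated in B1. OHT arrays of the labelled knockout were all above those of the wild type, and untreated ones all below. Its difference of 1.32 ± 0.18 (SE; limma adjusted p 0.0736) was the largest of the 12. Gja1, the gap junction protein connexin-43, had changes of -0.15 and -0.43 in the labelled knockout, against -1.32 and -1.31 in the wild type. Adam23, a membrane protein that binds integrins, had changes of 0.02 and -0.19, against -1.09 and -0.96.

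Utf1 and Pdk1 fell in both genotypes, with the smaller fall in the labelled knockout. Utf1, a chromatin factor of undifferentiated stem cells, fell by 0.89 in the labelled knockout and fell by 1.47 in the wild type. Pdk1, a kinase that restrains the entry of pyruvate into mitochondria, fell by 1.098 in the labelled knockout and fell by 1.95 in the wild type. Slc39a14, a zinc and iron importer, differed by 0.97, and Pdzd4 by 0.75. Zfp36l1, which destabilises mRNAs with AU-rich elements, had changes of 0.07 and -0.10 in the labelled knockout, against -0.71 and -1.04 in the wild type.

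Meg3, a long noncoding RNA expressed from the maternal copy of its imprinted domain, was at 5.86 with OHT and 5.79 untreated in A2 and at 5.29 with OHT and 5.36 untreated in B2, against 5.35 with OHT and 6.10 untreated in A1 and 3.91 with OHT and 4.62 untreated in B1. The change of Meg3 was 0.00 in the labelled knockout, and Meg3 fell in the wild type by 0.73 (limma adjusted p 0.000413). Mirg, another noncoding RNA of that domain, chosen after its values were seen, differed by 0.69 ± 0.12 (SE). Zfp992 and Cdyl2, a protein related to readers of histone methylation, had changes of opposite sign: Zfp992 had 0.35 and 0.53 in the labelled knockout, against -0.43 and -0.50 in the wild type, and Cdyl2 had 0.37 and 0.30, against -0.48 and -0.60. Zfp992 belongs to a family of closely related zinc finger genes whose probes could read each other. Of these, Zfp967 differed by 0.64 and Zfp987 by 0.74, also chosen after their values were seen.

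The labelled knockout change was also more often the smaller one in larger sets, chosen by size of difference or of change and sharing genes. The share of all genes with the smaller change in the labelled knockout was not taken, so these counts lack a background. Genes with a 2-fold change numbered 735 of 14394 in A2 and 897 of 14796 in B2. They numbered 864 of 14960 in A1 and 994 of 15012 in B1, so the genotypes overlapped in this number. With pools that did not overlap and a difference of at least 1, 244 genes were higher in the labelled knockout (1.78%) and 96 lower (0.701%), and of these 59 and 40 were well above background on all arrays. The labelled knockout change was the smaller in size in 77 of these 99 genes, 40 of the 59 higher and 37 of the 40 lower. The genotypes stood further apart with OHT than without it in 58 of the 99, 30 of the 59 higher and 28 of the 40 lower. For this, too, the share over all genes was not taken. Their mean changes had opposite signs in 41 of the 59 and 10 of the 40. The wild type change was positive in all 40 genes of the lower set and negative in 52 of 59 of the higher set. Among them were Sox21, Irx3 and Pitx1, homeobox or SOX factors of the embryo that rose in the wild type by 1.71, 1.96 and 1.66 and whose differences were -1.48, -1.18 and -1.12. Kit, the receptor of stem cell factor, rose in the wild type by 1.68 and its difference was -1.05. These 4 genes were named after their values were seen.

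**Figure D3:**
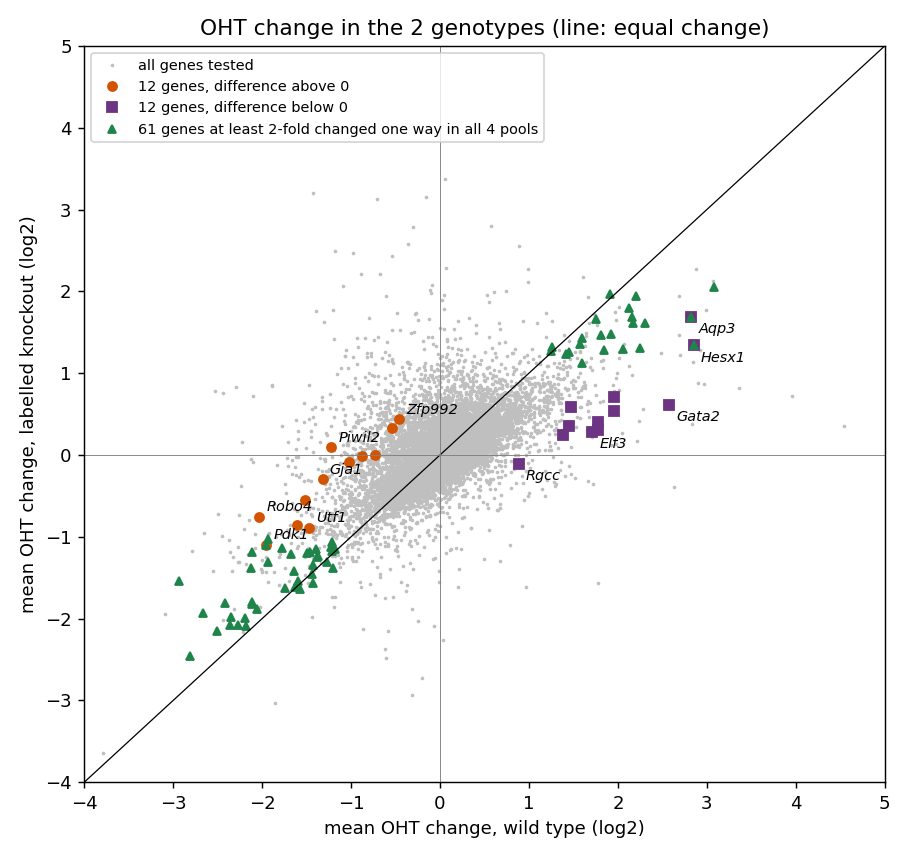
Mean change with OHT in the labelled knockout (vertical) against that in the wild type (horizontal), both log2, for all 15154 genes. The diagonal marks equal change; the 24 named genes lie off it on the side of the smaller labelled knockout change, and 53 of the 61 genes with changes of at least 2-fold one way in all pools lie on that side too.

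Of the genes well above background everywhere, 61 had changes of at least 2-fold in the same direction in all 4 pools, 22 upward and 39 downward. The labelled knockout change was the smaller in 19 of the 22 and in 34 of the 39, or 53 of 61 (86.9%), with a median difference of -0.39 in the upward genes and 0.23 in the downward ones. The choice asked the same of all 4 pools. The genes share those pools, and the share over all genes was not taken, so their count is no test.

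The 6 shared genes of smallest difference had 95% intervals that hold 0 and reach at most 0.69 from it. Fgf5, a growth factor of the epiblast, fell by 1.61 in the labelled knockout and fell by 1.63 in the wild type, with a difference of 0.01 (95% interval -0.66 to 0.69). Dusp2, a nuclear phosphatase of ERK, fell by 1.46 in the labelled knockout and fell by 1.43 in the wild type, a difference of -0.02 (-0.43 to 0.38). The differences of Cdc14b, a phosphatase, Gabra3, a GABA receptor subunit, Patl2, an mRNA-binding protein of oocytes, and Kirrel2, an adhesion protein, were 0.03, -0.03, 0.03 and 0.05, and their intervals reached at most 0.55 from 0. These 6 were chosen for a small difference, and their signs turned with scaling, masking or with a pool left out.

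List medians and counts are read against all genes tested, of which the median was -0.04, with 42.9% above 0 and 57.1% below. With arrays scaled on their median instead of their 75th percentile the median of all genes moved to -0.39, and every list median given here as above 0 turned below 0; the feedback, ERK transcription factor, formative and fibroblast lists kept their side of the median of all genes.

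Feedback inhibitors of the pathway are induced by ERK and dampen it, and 9 of 16 tested members had a difference above 0, with a median of 0.11, against -0.04 over all genes. Pools did not overlap in 8 of 16, with the labelled knockout higher in 5 and lower in 3, against 15.9% higher and 26.5% lower of all genes. Spry2, a Sprouty protein that blocks receptor signalling to RAS, was at -0.11 with OHT and 0.79 untreated in A2 and at -0.07 with OHT and 0.87 untreated in B2, against -0.67 with OHT and 0.86 untreated in A1 and -0.90 with OHT and 1.02 untreated in B1. The untreated arrays were close together and the OHT arrays separated by genotype. Spry2 fell by 0.92 in the labelled knockout (limma adjusted p 0.00466) and fell by 1.72 in the wild type (adjusted p 0.000131), a difference of 0.80 ± 0.18 (SE; adjusted p 0.232).

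Of its relatives Spry4, Spred1 and Spry1 had differences of the same sign, and Spred2 had the opposite sign. Spry4 fell by 1.54 in the labelled knockout and fell by 2.94 in the wild type. Spred1, a partner of the RAS inhibitor neurofibromin, fell by 0.91 in the labelled knockout and fell by 1.54 in the wild type. The changes of Spry1 were -0.21 in the labelled knockout and -0.83 in the wild type, of which the wild type one passed. The phosphatases of the list had differences of both signs. Dusp6 fell by 2.08 in the labelled knockout and fell by 2.27 in the wild type, a difference of 0.19 (95% interval -0.05 to 0.44). Dusp4 fell by 2.08 in the labelled knockout and fell by 2.36 in the wild type, a difference of 0.28 (-0.10 to 0.66). Dusp8 went the other way, rising by 0.86 in the labelled knockout and by 1.94 in the wild type. Dusp5, Dusp7 and Dusp9 also lay below 0, at -0.26, -0.24 and -0.24, and Dusp1 and Dusp2 at -0.03 and -0.02. Dusp10 and Dusp14 lay above it, at 0.42 and 0.03. Spred2 had a difference of -1.68 that rested on 1 array, the untreated array of pool B1 at -2.32 where the other 7 lay between 0.00 and 0.65; its changes were -0.30 in A2 and -0.46 in B2, against -0.11 in A1. The median of the feedback list was 0.135 without pool A2, 0.19 without B2, 0.08 without A1 and 0.105 without B1.

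The transcription factors induced by ERK had a median difference of 0.17, with 14 of 21 above 0. Most of that median rested on pool A2: it was 0.00 without A2, 0.28 without B2, 0.17 without A1 and 0.09 without B1. Myc, which drives growth and proliferation, was at 1.43 with OHT and 2.40 untreated in A2 and at 1.24 with OHT and 2.78 untreated in B2, against 0.28 with OHT and 2.18 untreated in A1 and 0.17 with OHT and 2.92 untreated in B1. Both labelled knockout pools kept more Myc RNA with OHT than either wild type pool. Myc fell by 1.25 in the labelled knockout (limma adjusted p 0.0151) and fell by 2.33 in the wild type (adjusted p 0.000902), a difference of 1.08 ± 0.30 (SE; adjusted p 0.382). Mycl, its relative, rose in the labelled knockout by 1.41 and its change was 0.08 in the wild type. Egr1, an immediate early gene, fell by 1.98 in the labelled knockout and fell by 2.35 in the wild type, a difference of 0.37 (-0.20 to 0.94). Jund, a member of the AP-1 family, had the smallest p of the list and differed by -0.48. Of other ERK response genes, 11 of 19 lay above 0, with Il17rd, an inhibitor of FGF signalling, at 0.73 ± 0.13 (SE).

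Within the ETS family 9 of 21 tested genes had a difference above 0, with a median of -0.07. This median had no settled sign: it was 0.09 with normexp and 0.02 without masking, and -0.16 without pool B2, 0.00 without A1 and -0.21 without B1. Besides Elf3, Ets1 had a change of 0.35 in the labelled knockout and rose in the wild type by 1.04. Etv4, an activator induced by ERK, fell by 1.89 in the labelled knockout and fell by 2.06 in the wild type, a difference of 0.18 (95% interval -0.15 to 0.50). The RAS family and cascade genes had a median of -0.07, with 10 of 30 above 0, and the smallest p at Rps6ka1, an ERK-activated kinase, with a difference of -0.27.

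FGF ligands and receptors had a median difference of -0.18, with 13 of 18 below 0, against 57.1% of all genes. Of 17 members, 9 were lower in the labelled knockout without overlap and 4 higher, against 26.5% and 15.9% of all genes. Without pool B1 the median of the list was -0.31, and with normexp it was -0.06. Fgf4, the FGF that stem cells secrete, was at 4.25 with OHT and 4.41 untreated in A2 and at 5.97 with OHT and 5.56 untreated in B2, against 6.06 with OHT and 5.28 untreated in A1 and 6.39 with OHT and 5.41 untreated in B1. The change of Fgf4 was 0.12 in the labelled knockout, Fgf4 rose in the wild type by 0.88 (limma adjusted p 0.00435), and the difference was -0.75 ± 0.18 (SE; adjusted p 0.283). Fgfr1, the main FGF receptor of stem cells, rose by 0.29 in the labelled knockout and by 0.80 in the wild type. The 5 members above 0 included Frs3 at 2.16, Fgf2 at 0.89, Fgfr4 at 0.55 and Fgf10 at 0.48. Frs3 was not well above background on all arrays.

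**Figure D4:**
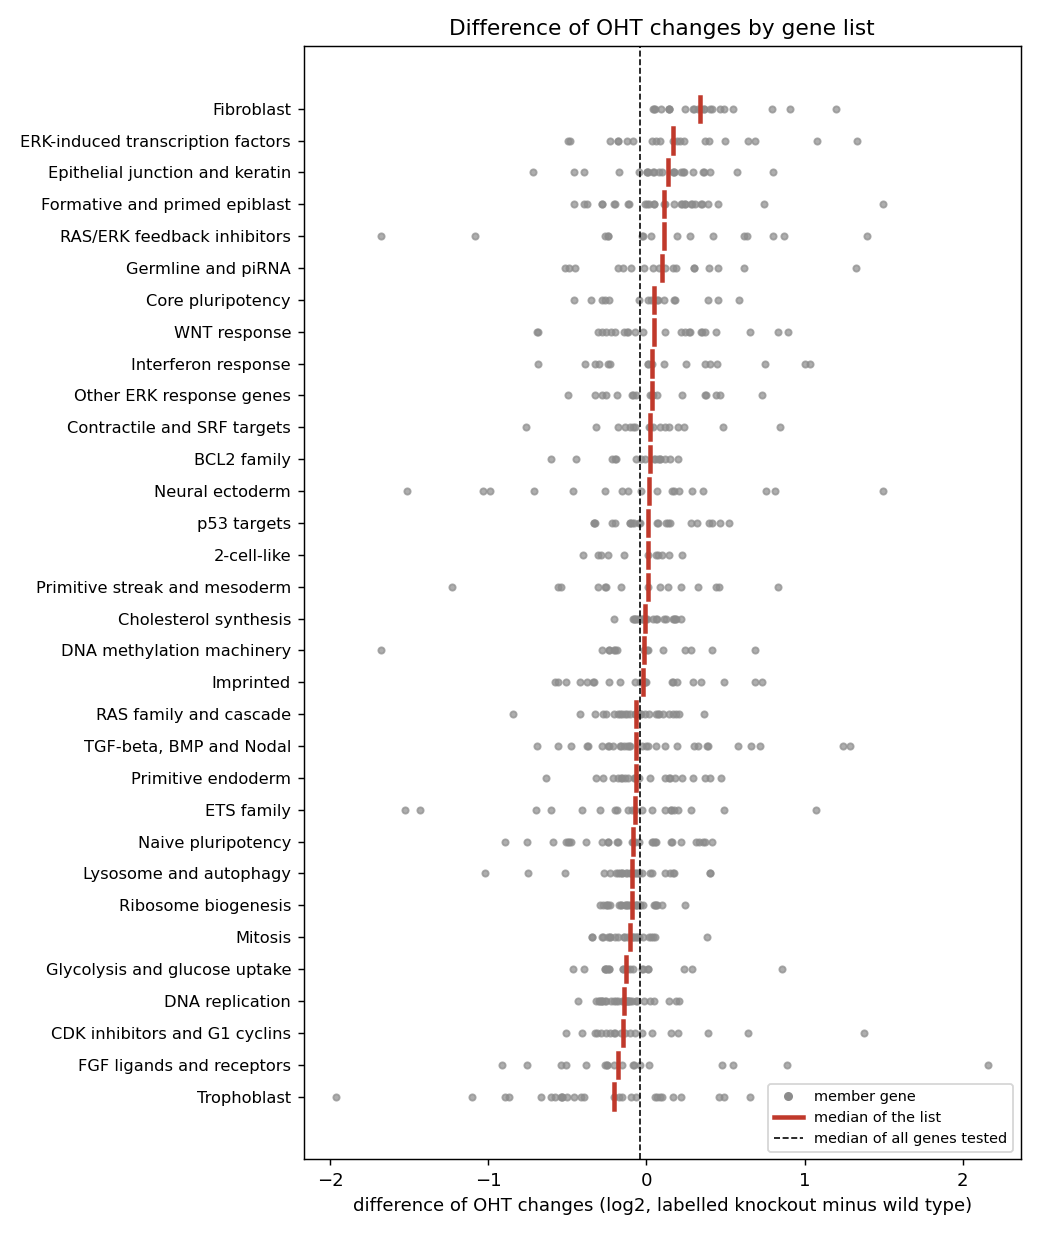
Difference of OHT changes (log2, labelled knockout minus wild type) of each member gene of 32 lists, ordered by the median of the list (red), with the median of all genes dashed at -0.04. With this scaling the fibroblast list has its 22 members above 0, and the trophoblast list has the lowest median.

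Trophoblast genes had the lowest median of the 32 lists, -0.20, with 19 of 29 below 0 and the labelled knockout lower without overlap in 10 of 22, against 57.1% and 26.5% of all genes. In the labelled knockout 4 of 29 rose and 3 fell, against 5.04% and 8.96% of all genes, and in the wild type 13 rose and 3 fell, against 9.26% and 8.70% of all genes. Besides Gata2 and Tfap2c, Rhox6, a homeobox gene of placenta and germ cells, had a change of 0.36 in the labelled knockout and rose in the wild type by 1.25, a difference of -0.89 ± 0.16 (SE; limma adjusted p 0.127). Ascl2, a factor of the placental spongiotrophoblast, fell in the labelled knockout by 0.34 and its change was 0.24 in the wild type. Gata3 rose by 0.71 in the labelled knockout and by 1.25 in the wild type. Hand1, a factor of giant cells, fell in the labelled knockout by 0.89. The other 10 of 29 members lay above 0, among them Cdx2 at 0.46, Peg10 at 0.49, Prl3d1 at 0.66 and Eomes at 0.09. Pools did not overlap with the labelled knockout higher in 2 of 22, against 15.9% of all genes. The median of the list was -0.17 without pool A2, -0.42 without B2, -0.22 without A1 and likewise without B1, and -0.135 with normexp. Its place as the lowest did not hold in every fit. Naive genes were at -0.23 without A2 and the neural ectoderm list at -0.44 without B2. The FGF list was at -0.31 without B1, and DNA replication at -0.26 with normexp. Of 8 trophoblast markers 6 were well above background on all arrays and Elf5, which defines trophoblast stem cells, on none, and their median level was -1.52 to 0.80 and -1.93 to 0.15 in the labelled knockout with OHT and untreated, against -1.24 to -1.21 and -1.63 to -1.54 in the wild type with OHT and untreated. The part of such cells in these differences was not tested.

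Fibroblast and matrix genes all stood on the other side: 22 of 22 had a difference above 0, with a median of 0.34, and 10 of 19 did not overlap with the labelled knockout higher, against 42.9% and 15.9% of all genes. In the labelled knockout 5 of 22 rose, against 5.04% of all genes, and in the wild type 1 rose, against 9.26%. Col1a2, a chain of type I collagen, rose in the labelled knockout by 0.49. Prrx1, a mesenchymal transcription factor, rose by 1.00, and Postn, a matrix protein, had mean changes of 0.99 in the labelled knockout and -0.21 in the wild type. Vim, an intermediate filament protein, had the smallest p of the list and differed by 0.40, with pool B2 masked. The list stood highest in pool A2, where its median change was 0.62, against 0.27 in B2, 0.14 in A1 and 0.15 in B1, and the median difference was 0.10 without pool A2. Of 10 feeder markers 7 were well above background on all arrays, Lum on none. Their median level was -1.79 to -0.99 and -2.06 to -1.49 in the labelled knockout with OHT and untreated, against -1.59 to -1.09 and -2.10 to -1.39 in the wild type with OHT and untreated. Whether other cells entered the difference was not tested.

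Cell cycle genes had small differences. DNA replication genes had a median difference of -0.14, with 27 of 32 below 0 and 18 of 30 lower in the labelled knockout without overlap, against 57.1% and 26.5% of all genes. Rrm2, the subunit of ribonucleotide reductase that limits deoxynucleotide supply, fell in the labelled knockout by 0.25 (limma adjusted p 0.031) and its change was 0.19 in the wild type, a difference of -0.44 ± 0.09 (SE; adjusted p 0.169). Of the MCM helicase, Mcm4, Mcm5 and Mcm6 differed by -0.28, -0.28 and -0.29. Without pool A2 the median of the list was -0.09, and without masking it was -0.05. Mitosis genes had a median of -0.11, with 19 of 24 below 0 and 13 of 22 lower without overlap, against the same shares of all genes, and the median was -0.06 without pool A2 and -0.22 without B2. Among them were Cdc20, the activator of the anaphase-promoting complex, at -0.34 and Top2a, a topoisomerase, at -0.35.

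CDK inhibitors and G1 cyclins had a median of -0.15, with 14 of 20 below 0, and it was -0.09 without pool A1 and -0.23 without B1. Cdkn2a, which encodes p16 and p19, had the smallest p and ran the other way, with changes of 0.53 and 0.41 in the labelled knockout, against -0.36 and 0.00 in the wild type. Cdkn2c, another inhibitor of that family, differed by -0.41. Ribosome biogenesis genes had a median of -0.09, with 22 of 28 below 0 (57.1% of all genes), and it was -0.04 without pool A2, -0.17 without B2, -0.02 without A1 and -0.18 without B1. Of them 19 fell in the labelled knockout, Tsr1 among them, and 10 in the wild type, against 8.96% and 8.70% of all genes. Glycolysis and glucose uptake genes had a median of -0.13, with 16 of 21 below 0. That median was -0.085 without pool A2, -0.16 without B2, -0.21 without A1, -0.12 without B1 and -0.06 without masking. Gapdh was at -0.39 and Hk1, a hexokinase, at -0.46, with Pdk1 on the opposite side.

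Pluripotency genes were divided. Among naive genes 17 of 29 lay below 0, near the 57.1% of all genes, and the median of -0.08 turned to 0.05 without pool B2 and 0.07 without A1. Prdm14, a repressor that keeps the naive state, rose by 1.68 in the labelled knockout and by 2.16 in the wild type, a difference of -0.48 (95% interval -0.92 to -0.03). Nanog, a core factor of the naive state, rose in both genotypes, with a difference of -0.28 (-0.74 to 0.18). Tcl1, a cofactor of AKT, rose by 0.43 in the labelled knockout and by 1.03 in the wild type. Formative epiblast genes, which mark the step after the naive state, had a median of 0.11, with 20 of 30 above 0, and 16 fell in the labelled knockout and 17 in the wild type, against 8.96% and 8.70% of all genes. Their median was 0.06 without pool B2 and likewise without A1. Dnmt3b, a DNA methyltransferase, fell by 0.93 in the labelled knockout and fell by 1.21 in the wild type. Core pluripotency genes had a median of 0.05, which was 0.00 without pool A2 and -0.01 without B1.

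Signalling and immune lists held single genes of large difference. Bmp4, a signal of the TGF-beta family, had a change of -0.05 in pool A2, against -1.06 and -1.54 in the wild type pools, with B2 masked, a difference of 1.24 ± 0.21 (SE; limma adjusted p 0.176). That value moved with the processing: it was 0.05 without the replicate block, 0.22 with no filter on dim probes and 0.78 with no margin around dark areas. Fst, an activin antagonist with pool B1 masked, differed by 0.74. Of 17 interferon response genes 11 lay above 0, and their median of 0.04 was -0.17 without pool A1. Isg15, a ubiquitin-like protein, had changes of 0.29 and 0.67 in the labelled knockout, against -0.76 and -0.29 in the wild type, and Oas1a, an RNA sensor, ran the other way at -0.69. Gbp2 and Psmb8, of the interferon gamma response and chosen after their values were seen, differed by 1.65 and 1.57. Calcoco2, an autophagy receptor, rose by 2.05 in the labelled knockout and by 3.08 in the wild type. The remaining lists had medians between -0.09 and 0.13, most of which moved by more than 1.5 times or changed sign with 1 pool left out. Their members of smallest p were Nid2 at -0.32, Gsc at -1.23, Sp110 at -0.24, Fzd10 at -0.69, Lss at 0.22, Btg2 at 0.40, Bcl2l14 at -0.61, Actc1 at -0.76 and Spint2 at 0.35. Of these, Gsc was well above background on only 6 arrays and Actc1 on 7.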

How the data were processed

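Total RNA from each of the 8 samples was Cy3-labelled for its own array, per the labels' protocols. Spot intensity in the deposited scanner files was, per the file headers, made with Agilent's Feature Extraction software, version 11.5.1.1, with background subtracted; arrays were not scaled against each other. Median signals and local backgrounds are deposited intensity values as well, and the flags for control, outlier and above-background spots are 0 or 1. A deposited table of log2 values correlated with the scanner values at -0.01 to 0.00 by probe name, so it gave no names and no tests; its scaling, centring and direction are unknown, with column medians of -0.16 to 0.13. The submitters' own normalisation is not stated in the labels or headers.

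Of 62976 spots an array, 59305 were no controls, for 55681 probes. Outlier spots were left out, and so were dark areas, where the median over 7 by 7 spots of the log2 signal, relative to the median of the same spot over arrays, was under -0.5, with a margin of 3 spots. The log2 processed signal minus the 75th percentile of the array was averaged over the spots of a probe. Through a RefSeq table (assembly GRCm38.p6, names only), 28026 probes gave 21154 genes, and 27655 probes have no name. A gene was tested where the 2 arrays of some group had its probe well above background and at least 3 pools were unmasked; of several probes, as 3962 genes had, the one unmasked on most arrays, then the brightest, was kept.

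The difference was tested two-sided with limma 3.58.1 in R 4.3.3, with the 4 pools as blocks, 1 OHT term per genotype, eBayes with trend and robust variance (2 residual and a median of 6.46 prior degrees of freedom), and Benjamini-Hochberg adjustment over all genes. A trial of the fit on simulated data used differences larger than those of the genes of smallest p, so it does not check sizes like theirs. Pairing within a genotype comes from the source names; deviations from the group means correlated across genes at 0.723 in the labelled knockout and 0.752 in the wild type. The number of arrays limits the precision. Named are Erf, Hras and Nras (another gene of the naming rule is not reported here), the 12 genes of smallest p in each direction, the member of smallest p of each of 32 lists and 6 shared changes; other list members and other genes were picked after their values were seen. The members and lists were chosen with earlier results of these data known. Alternatives covered blocking, variance model, masking, background, scaling, filter, probe choice and each pool left out; normexp (offset 50) used median signals because mean signals are no column of the files. Tables and figures: Python 3.11.15 with pandas 2.3.3, numpy 2.4.6, matplotlib 3.10.9 and scipy 1.17.1.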

Additional observations from a re-analysis of the deposited data

Results flagged for a closer look

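In 10 named genes both labelled knockout pools moved one way with OHT and both wild type pools the other. The difference of the changes (log2, labelled knockout minus wild type) was 1.32 for Piwil2, 0.90 for Zfp992, 0.88 for Cdyl2, 0.65 for Cdkn2a, 0.36 for Spint2 and 0.22 for Lss, and -0.998 for Rgcc, -0.61 for Bcl2l14, -0.44 for Rrm2 and -0.32 for Nid2. None of these differences passed at a limma adjusted p of 0.05. In Cdkn2a, Piwil2, Nid2, Rgcc and Spint2 at least 1 pool lay within 0.05 of no change, so that its sign rests on a small value. Groups of 2 arrays allowed no check for a sample far from the others.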

How the results depend on the processing

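The count of genes that passed for the difference was 0 and stayed 0 without the replicate block (102 genes at an unadjusted p of 0.05, the lowest count), with pools as a random block, with plain eBayes, with array weights, under every masking choice, with no filter on dim probes and with every probe tested (2751 genes at an unadjusted p of 0.05, the highest). It was 173 with the replicate block also on the OHT effect (78 higher, 95 lower in the labelled knockout), 241 with normexp (62 higher, 179 lower), 18 with quantile normalization, 14 with median scaling and 13 among probes well above background on all arrays. Left out one pool at a time, it was 0 to 7: 0 without A2, 6 without B2, 5 without A1 and 7 without B1, the last being slide 1 alone. The shared number of A and B pools across the genotypes comes with a correlation of 0.205 between their pool differences and pairs no samples by design. All 24 genes of smallest p passed under normexp and under that block, 17 under quantile normalization, 13 under the stricter filter and 6 under median scaling; of them, Ttyh2 alone reversed, at 0.318 with a masking threshold of -0.25. Median scaling moved the median of all differences to -0.386, from which these reversals follow: Hras -0.278, Nras -0.197, Dnmt3b -0.061, Lss -0.119, Fgf5 -0.327, Cdc14b -0.309, Patl2 -0.307 and Kirrel2 -0.292. Relative to the median of all genes, the fibroblast, trophoblast, FGF, DNA replication, mitosis, feedback and ERK transcription factor lists kept the sign of their median under all 21 alternatives. Some came close to it: the value nearest to 0 was 0.006 for feedback, -0.021 for mitosis and 0.031 for ERK transcription factors. For FGF and for DNA replication it was -0.047, for trophoblast -0.123 and for fibroblast 0.134. Other reversals, whose cause was not tested, were Nras -0.009, Actc1 0.163, Cdc14b -0.117 and Patl2 -0.091 with normexp, Fgf5 -0.23 with quantile normalization, Fst -0.056 without the replicate block, Gabra3 0.206 with a masking threshold of -0.25, and Dusp2 0.066 and Gabra3 0.054 without masking. Leaving out pools, the differences of the shared genes ran from -0.326 to 0.353 for Fgf5, -0.193 to 0.147 for Dusp2, -0.021 to 0.084 for Cdc14b, -0.29 to 0.221 for Gabra3, -0.233 to 0.301 for Patl2 and -0.015 to 0.113 for Kirrel2. Masking without a margin, added after seeing the data, called 0 genes. Between 54.0% and 63.6% of the spots of an array were well above background, which limits the dim genes.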
